A study of Homo sapiens with 4 samples.

Results

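The epidermal barrier lipid and ceramide enzymes were examined as 9 protein-coding genes, ABCA12, ALOX12B, ALOXE3, CERS3, CYP4F22, ELOVL4, PNPLA1, SMPD1 and UGCG, which were taken by symbol, with earlier results of these data known. Each had 1 row among the 44591 rows of the gene tables, of which 19233 are protein-coding. RNA-seq was performed on 4 untreated replicates of HaCaT cells, spontaneously immortalized keratinocytes of human skin, grown as an adherent culture in Dulbecco's modified Eagle medium with 12% fetal bovine serum by the sample labels; the study's methods state a different serum percentage. All 4 libraries belong to 1 condition, so there is no treated or control group, and the comparisons below are between genes and between replicates. Because a cell line grown in a dish has no cornified layer, the values describe transcripts in cultured cells and not a finished skin barrier.

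The lipid barrier of the skin lies between the dead cells of the outermost epidermis and is built mainly from ceramides, cholesterol and free fatty acids. Its hallmark lipids are acylceramides, in which an ultra-long fatty acid carries a further linoleic acid on its end. ELOVL4 extends the fatty acid, CYP4F22 adds the hydroxyl group to its end, CERS3 joins it to a sphingoid base, and PNPLA1 transfers the linoleic acid. UGCG then adds glucose, ABCA12 loads the glucosylated lipid into lamellar granules, and after secretion SMPD1, the acid sphingomyelinase, releases ceramides from sphingomyelin. ALOX12B and ALOXE3 oxidize the linoleic acid in sequence, a step on the way to binding the lipid to the protein envelope of the dead cell. Inherited loss of most of these genes causes ichthyosis, whereas SMPD1 and UGCG act in the lysosomes and Golgi of nearly all cells.

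The depth was 73082279 counts in replicate 1 and 17056035 to 19745170 in replicates 2 to 4. Protein-coding genes took 76.1% of the counts of replicate 1 and 95.3% to 96.4% of the others, so levels are given as TPM over protein-coding genes (counts per kilobase of gene, scaled to 1000000 over the protein-coding rows of a library). Within replicate 1, genes with GC-rich transcripts were lower than in the others: the median log2 difference over bins of GC content went from 1.05 in the most GC-poor to -1.01 in the most GC-rich bin. At most 0.608% of genes with a mean TPM above 1 had equal counts in any pair of replicates, so the libraries are distinct. The keratinocyte label was met by the defining basal markers, with KRT14 at 6375 to 7642 TPM, KRT5 at 1920 to 5396 TPM and TP63 at 34.5 to 90.7 TPM. Of the markers of other cells of skin, TYR (melanocytes), CD207 (Langerhans cells), PECAM1 and KDR (endothelium) and MC5R, AWAT1 and AWAT2 (sebocytes) had no count in any replicate, and PTPRC (leukocytes) had 3 counts in replicate 1 and 0 in the others. The summed TPM of the 5 melanocyte markers was 1.6 to 3.52, that of the 6 fibroblast markers 5.20 to 9.70 and that of the 4 endothelial markers 0.859 to 2.36. The 5 leukocyte markers summed to 8.42 to 43.9 TPM, nearly all from CD68, a lysosomal protein, and the 6 sebocyte markers to 23.1 to 32.8 TPM, from the lipid enzymes FADS2 (8.64 to 14.8 TPM) and SOAT1 (11.8 to 21.7 TPM). The part of such cells in the members' levels was not tested.

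Of the 9 genes, 5 had a mean TPM above 1, the limit used here for a detected gene, against 63.3% of all protein-coding genes. UGCG and SMPD1, the members that most cells use, were the highest, followed by CERS3, and the other 6 had a mean of 1.32 TPM or less. The median of the 9 means was 1.30 TPM, against 7.21 TPM over all protein-coding genes. Without replicate 1 these medians were 0.793 and 6.41 TPM, and with TPM over all rows 0.662 and 5.15 TPM. In bulk RNA, fewer cells that express a gene and less RNA per cell cannot be told apart, and a low level here can be either.

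**Figure D1:**
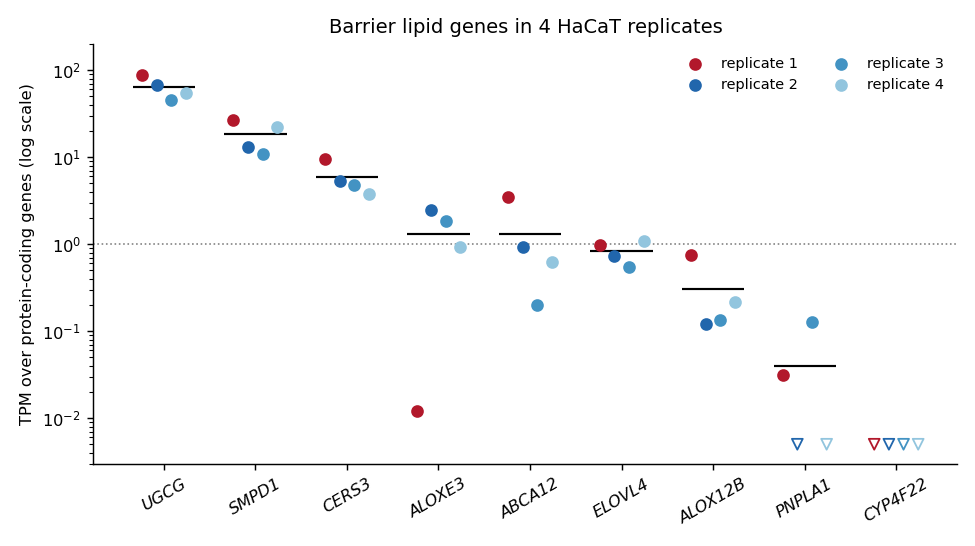
TPM over protein-coding genes (log axis) of the 9 genes in each of the 4 HaCaT replicates, ordered by their mean (black line). Open triangles at the foot mark libraries without a count, and the dotted line marks a TPM of 1. UGCG is near or above 45.1 TPM in every replicate, CYP4F22 has no count in any, and replicate 1 (red) lies above the others for ABCA12 and ALOX12B and below them for ALOXE3.

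Among the enzymes that build the acylceramide, CERS3 (chromosome 15, 100940600 to 101084925, minus strand, positions on hg19) was the most abundant. It had a TPM of 9.63, 5.35, 4.81 and 3.82 in replicates 1 to 4, from 1013, 154, 187 and 123 counts. The mean was 5.90 ± 2.57 (SD, n = 4), and replicate 1 lay above the other replicates, whose values were close together. TPM over all rows puts replicate 1 lowest (2.98 against 3.55 to 4.74), but it lowers most genes of that library. Relative to the median of protein-coding genes with a mean TPM above 1, CERS3 was higher there by 1.00 and 1.01 (log2) under the 2 scalings. ELOVL4 (chromosome 6, 80624529 to 80657315, minus strand), the elongase for the longest chains, had a TPM of 0.968, 0.737, 0.545 and 1.10 from 72, 15, 15 and 25 counts. Its mean was 0.837 ± 0.245 (SD, n = 4), and it was the most even of the low genes, with no replicate far from the others. Per kilobase, CERS3 had 3.48 to 9.95 times the reads of ELOVL4 in the 4 replicates.

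CYP4F22 (chromosome 19, 15619336 to 15663128, plus strand), the omega-hydroxylase, had no count in any of the 4 libraries. A count of 0 allows up to 3 counts, which for this gene is a TPM of 0.0473 in the deep replicate 1 and of 0.128 to 0.173 in the others. PNPLA1 (chromosome 6, 36210945 to 36276372, plus strand), the transacylase that forms the final acylceramide, had 2, 0, 3 and 0 counts, at or under the same limit. The omega-hydroxylase and the transacylase were therefore at or under the floor of 3 counts in every library, while ELOVL4 and CERS3 were above it in all 4. The counting error of PNPLA1 in replicate 3, the library with most counts of it, runs from 0.0265 to 0.375 TPM (exact Poisson interval, 95%).

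UGCG (chromosome 9, 114659046 to 114697654, plus strand), the glucosylceramide synthase, was the highest of the 9 genes in every replicate. Its TPM was 88.5, 67.2, 45.1 and 55.1 from 8627, 1792, 1627 and 1647 counts, a mean of 64.0 ± 18.7 (SD, n = 4). The gene alone made up 65.5% to 74.6% of the summed TPM of the 9 members, and its mean exceeded 85.6% of all protein-coding genes. SMPD1 (chromosome 11, 6411644 to 6416228, plus strand) followed with a TPM of 27.0, 13.2, 11 and 22.4, a mean of 18.4 ± 7.54 (SD, n = 4). On this scale replicates 1 and 4 were high and replicates 2 and 3 low for SMPD1, and the counting intervals of the 2 pairs do not overlap. Those of replicate 1 (25.7 to 28.3 TPM) and replicate 4 (20.3 to 24.6 TPM) do not overlap each other either. TPM over all rows puts replicate 1 lowest for UGCG and SMPD1. Relative to the median gene of that library the log2 difference was 0.64 for UGCG and 0.82 for SMPD1. With TPM over all rows it was nearly the same by construction (0.62 and 0.80). The UGCG to SMPD1 ratio per kilobase was 3.28, 5.07, 4.11 and 2.46 in replicates 1 to 4, with 95% Clopper-Pearson intervals from 2.21 at the lowest to 5.86 at the highest.

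ABCA12 (chromosome 2, 215796266 to 216003151, minus strand), the lipid transporter of the lamellar granule, differed widely between replicates. Its TPM was 3.47, 0.931, 0.202 and 0.616 in order of replicate, from 790, 58, 17 and 43 counts. The mean of 1.30 ± 1.47 (SD, n = 4) passed the limit of 1 only through replicate 1, since without it the mean was 0.583. Counting error does not span the gap on this scale, as the exact Poisson interval of replicate 1 was 3.23 to 3.72 TPM and the highest upper bound among the others was 1.2 TPM; with TPM over all rows the values were 1.07 in replicate 1 and 0.177 to 0.825 in the others. Set against CERS3 in the same library, which removes the scaling between libraries, ABCA12 had 0.360 times the reads per kilobase in replicate 1 (95% Clopper-Pearson interval 0.328 to 0.396) and 0.174, 0.0420 and 0.161 times in replicates 2 to 4.

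The lipoxygenases ALOX12B (chromosome 17, 7975954 to 7991021, minus strand) and ALOXE3 (chromosome 17, 7999218 to 8022234, minus strand) are neighbours on the same strand, 8196 bases apart, and act one after the other on the same lipid. ALOX12B had 45 counts in replicate 1 and 2, 3 and 4 counts in replicates 2 to 4, or a TPM of 0.740, 0.120, 0.133 and 0.215. ALOXE3 went the other way, with 1 count in replicate 1 and 57, 57 and 24 counts in the others, or a TPM of 0.0119, 2.48, 1.84 and 0.933. Replicate 1 was thus above all the others for ALOX12B and below all the others for ALOXE3. The ratio of ALOX12B to ALOXE3 per kilobase was 62.1 in replicate 1 (95% Clopper-Pearson interval 10.6 to 2508). In replicates 2 to 4 it was 0.0484 (0.00573 to 0.183), 0.0727 (0.0146 to 0.223) and 0.230 (0.0580 to 0.670). These 3 intervals overlap one another and lie below that of replicate 1, so the lipoxygenase pair was in opposite order in the first library. The libraries carry no stated molecular identifiers, so every interval given here describes counting error alone.

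In the order of mean TPM, UGCG, SMPD1, CERS3, ALOXE3, ABCA12, ELOVL4, ALOX12B, PNPLA1 and CYP4F22, each gene was compared with its neighbour within each replicate as a difference of log2(TPM + 0.1). UGCG exceeded SMPD1 by 1.84 ± 0.44 (SD, n = 4) and SMPD1 exceeded CERS3 by 1.62 ± 0.62 (SD, n = 4), in 4 of 4 replicates each. CERS3 was also above ALOXE3 in 4 of 4, but by amounts as uneven as 6.44 in replicate 1 and 1.08 in replicate 2. ALOXE3 and ABCA12 did not differ beyond their spread (-0.12 ± 3.37, SD, n = 4), nor did ABCA12 and ELOVL4 (0.05 ± 1.27, SD, n = 4). ELOVL4 was above ALOX12B in 4 of 4 replicates, by 1.42 ± 0.75 (SD, n = 4). ALOX12B was above PNPLA1 in 4 of 4 on this scale, with few counts of both. In replicate 3 both had 3 counts, and the difference of 0.03 came from their lengths alone (2502 and 2599 bases). In replicate 2 they had 2 and 0 counts, under the floor of 3. This pair is counted below among those that kept 1 direction, although replicate 3 is a tie in counts. For 4 replicates, p = 0.13 is the smallest value of the exact two-sided permutation test by sign flips, and it was reached by the 5 pairs that kept 1 direction (adjusted p = 0.20 over 8 pairs). The order is thus read from the direction in each replicate and its size, and the test passes no pair. Because the order was taken from the mean of these same replicates, the direction of each pair is partly set by it.

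The start of each gene was set beside its level, because the highest and the lowest members differ in the sequence around it. The windows of 300 bases around the outermost RefSeq start (GRCh38.p14) were found for 9 of 9 members, and the CpG dinucleotide, the site of DNA methylation in mammals, was counted in each. Over 14511 protein-coding genes of the files matched by symbol, the median window held 22 CpG. The median was 26 in genes with a mean TPM above 1 and 8 in the others. UGCG had 48 CpG, SMPD1 and ELOVL4 32 each, CERS3 31, CYP4F22 21, ALOXE3 19, ALOX12B 5, ABCA12 1 and PNPLA1 0. The windows of the highest pair and of ABCA12 and ALOX12B, whose TPM was highest in replicate 1 under each of the 4 scalings tried, are printed 5′ to 3′ in the direction of the gene, with each CpG in capitals. UGCG is at chr9:111896564-111896863, plus strand, SMPD1 at chr11:6390224-6390523, plus strand, ABCA12 at chr2:215138577-215138876, minus strand, and ALOX12B at chr17:8087667-8087966, minus strand.
UGCG: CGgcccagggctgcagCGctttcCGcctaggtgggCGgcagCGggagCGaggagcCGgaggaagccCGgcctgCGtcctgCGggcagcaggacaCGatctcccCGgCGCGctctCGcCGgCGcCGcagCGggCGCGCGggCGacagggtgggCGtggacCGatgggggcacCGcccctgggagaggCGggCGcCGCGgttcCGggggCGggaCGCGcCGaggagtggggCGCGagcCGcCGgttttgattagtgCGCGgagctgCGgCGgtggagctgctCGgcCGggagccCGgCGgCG
SMPD1: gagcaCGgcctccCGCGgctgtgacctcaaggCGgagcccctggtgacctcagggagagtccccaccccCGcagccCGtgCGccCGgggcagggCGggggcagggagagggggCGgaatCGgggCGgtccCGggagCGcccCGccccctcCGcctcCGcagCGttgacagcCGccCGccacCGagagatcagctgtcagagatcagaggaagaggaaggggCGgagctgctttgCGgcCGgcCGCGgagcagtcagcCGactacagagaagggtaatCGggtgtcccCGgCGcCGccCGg
ABCA12: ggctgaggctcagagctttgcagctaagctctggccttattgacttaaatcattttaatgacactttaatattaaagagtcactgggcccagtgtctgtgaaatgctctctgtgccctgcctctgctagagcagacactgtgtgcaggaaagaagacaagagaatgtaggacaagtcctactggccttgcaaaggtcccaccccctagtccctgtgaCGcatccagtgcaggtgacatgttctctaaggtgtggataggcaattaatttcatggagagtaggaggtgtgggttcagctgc
ALOX12B: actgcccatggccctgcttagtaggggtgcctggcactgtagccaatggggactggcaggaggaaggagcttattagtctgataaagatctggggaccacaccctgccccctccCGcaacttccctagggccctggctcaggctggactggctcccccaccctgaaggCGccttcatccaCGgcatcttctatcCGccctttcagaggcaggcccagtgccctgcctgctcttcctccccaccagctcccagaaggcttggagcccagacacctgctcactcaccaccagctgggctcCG
The windows of UGCG and SMPD1 hold CpG along most of their length, and that of ABCA12 holds a single one. At most 5.74% of protein-coding windows held as few CpG as ABCA12 and 18.8% as few as ALOX12B, while 97.9% held no more than UGCG. The order was not that of the levels throughout: ELOVL4, with as many CpG as SMPD1, had 0.837 TPM against 18.4 TPM, and CYP4F22 had 21 CpG and no count. Other starts are listed for ABCA12, ALOXE3, CERS3 and PNPLA1, and the files do not show which one was used.

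Each member belongs to a family of enzymes with related activity, and the share of the family's summed TPM was computed within each replicate. By mean level, UGCG was the only member that led its family: it took 83.9% ± 6.61 (SD, n = 4) of the 2 enzymes that put a sugar on ceramide, the other being UGT8, the galactosyltransferase. SMPD1 took 38.0% of the 4 sphingomyelin phosphodiesterases in replicate 1 and 8.19% to 15.5% in the others, a mean of 18.6% ± 13.3 (SD, n = 4) that was 12.1% without replicate 1. On average SMPD4, a neutral enzyme of the endoplasmic reticulum and nuclear envelope, was highest at 68.4 ± 32.6 TPM (SD, n = 4). In replicate 1, SMPD1 led its family at 27.0 TPM, above SMPD4 at 22.4 TPM and SMPD2 at 21.5 TPM (SMPD1 to SMPD4 ratio per kilobase 1.2, 95% Clopper-Pearson interval 1.13 to 1.28), while in the others SMPD1 had 0.123 to 0.239 times the reads of SMPD4.

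The enzymes specific to the ultra-long lipids were minor members of their families. CERS3 took 3.42% ± 1.72 (SD, n = 4) of the 6 ceramide synthases, led by CERS2, which makes ceramides with very long but not ultra-long chains, at 121 ± 30.3 TPM (SD, n = 4). ELOVL4 took 0.405% ± 0.142 (SD, n = 4) of the 7 fatty acid elongases, led by ELOVL1, the elongase for saturated very long chains, at 138 ± 23.7 TPM (SD, n = 4). Per kilobase, ELOVL4 had between 0.00415 and 0.00898 times the reads of ELOVL1. PNPLA1 took 0.0292% ± 0.0394 (SD, n = 4) of its family, a share that rests on 2 and 3 counts and was 0.0112% without replicate 3. The family was led by PNPLA2, the main triglyceride lipase, at 87.0 ± 39.8 TPM (SD, n = 4).

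By mean level, ABCA12 was the sixth of 12 ABCA transporters with a share of 2.76% ± 2.43 (SD, n = 4), or 1.55% without replicate 1, led by ABCA2 at 14.1 ± 9.56 TPM (SD, n = 4). In replicate 1, ABCA5 (16.8 TPM), ABCA1 (15.2 TPM) and ABCA4 (8.21 TPM) were above ABCA2 (6.17 TPM). Replicate 1 was the highest of the 4 for 6 of the 11 ABCA genes with a count, ABCA12 among them, against 36.7% of protein-coding genes with a count. ABCA8, also among the 6, had 1 count in replicate 1 and 0 in the others. Among the 6 lipoxygenases, ALOX5, the leukotriene-forming enzyme, was highest on average at 7.12 ± 4.64 TPM (SD, n = 4). Of the lipoxygenase sum, replicate 1 gave 0.229% to ALOXE3 and 14.2% to ALOX12B. The other replicates gave ALOXE3 between 4.62% and 24.4% and ALOX12B between 0.635% and 1.77%. The lipoxygenase sum itself was 5.21 TPM in replicate 1 and 7.54 to 20.2 TPM in the others. ALOX12, like ALOXE3, was lowest in replicate 1, with 2 counts against 92, 63 and 120. The mean share of ALOX12B was 4.42%, or 1.16% without replicate 1, and that of ALOXE3 was 10.6%, or 5.98% without replicate 3. CYP4F22 had no reads while CYP4F12 led its family at 26.5 ± 37.0 TPM (SD, n = 4), with 81.8 TPM in replicate 1 against 2.67 to 11 in the others. The CYP4F genes are close copies of one another, so reads of single CYP4F members are uncertain.

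**Figure D2:**
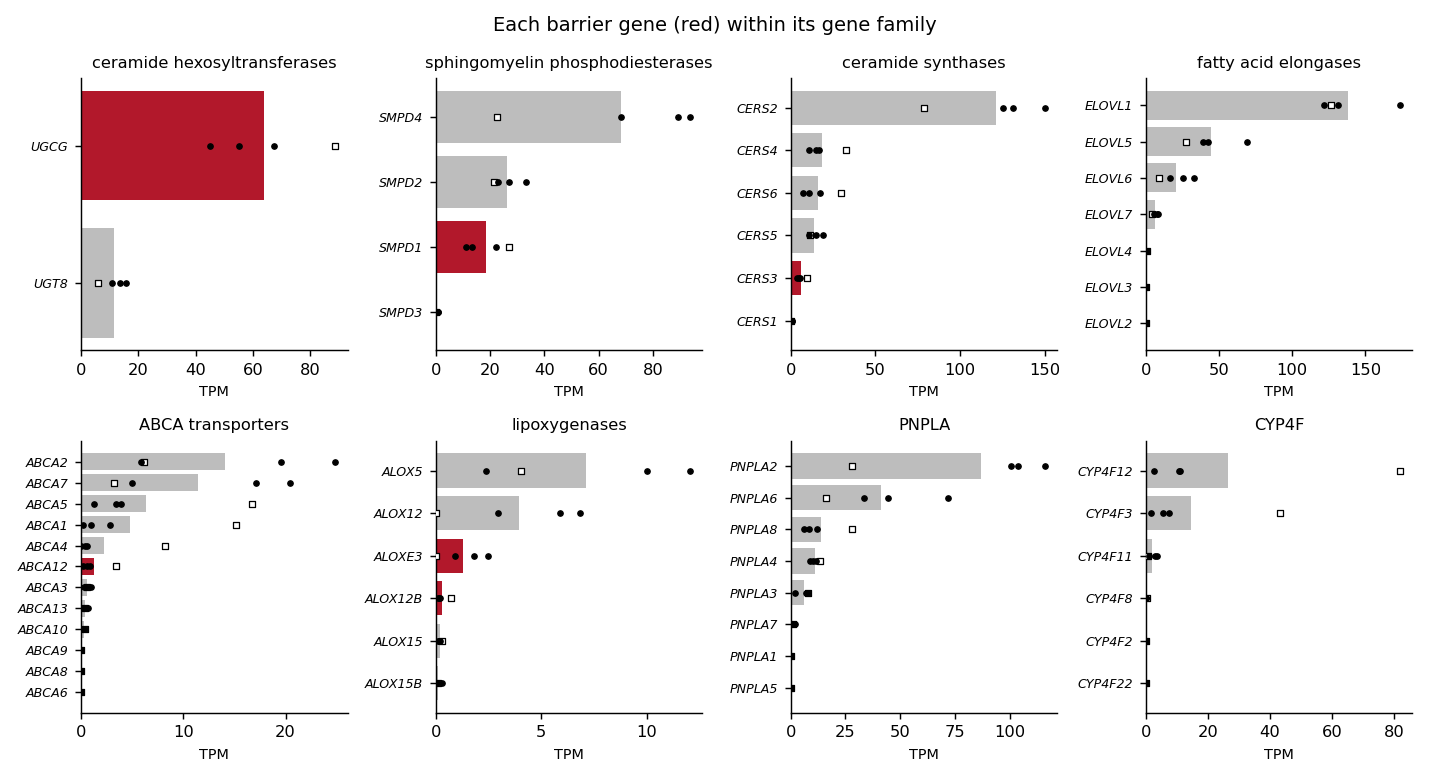
TPM of every gene of the 8 families in HaCaT, with the members in red, other genes in grey, bars for the mean over 4 replicates, filled circles for replicates 2 to 4 and open squares for replicate 1. UGCG has the longest bar of its family, while CERS3 and ELOVL4 are short beside CERS2 and ELOVL1, and the bars of PNPLA1 and CYP4F22 are too short to see.

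The remaining steps of the pathway were described from 5 lists of other lipid genes, 62 genes in all, of which 55 had a mean TPM above 1 against 63.3% of protein-coding genes. CERS1 (0.408 TPM), ELOVL2 (0.02 TPM) and ELOVL3 (0.0961 TPM), paralogs of listed genes with means under that limit, are not in the lists. The counts of genes that pass are therefore partly set by the choice of genes. All 15 genes of the ceramide backbone list, from serine palmitoyltransferase to the ceramide synthases and desaturases, passed that limit, with a median of 27.6 TPM, although DEGS2 and SPTSSB did so only through replicate 1. CERS2 (121 TPM), SPTLC1, a subunit of serine palmitoyltransferase (118 TPM), and KDSR, which reduces its product (63.5 TPM), were the highest. All 14 genes of fatty acid supply and elongation passed, with a median of 75.7 TPM and the highest means for SCD, the stearoyl-CoA desaturase (866 TPM), FASN, the fatty acid synthase (311 TPM), and TECR, the last enzyme of the elongation cycle (208 TPM). All 6 lipid nuclear receptors passed, led by RXRA (121 TPM), NR1H2 (77.4 TPM) and PPARD (17.9 TPM).

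Of the 12 genes of acylceramide and cornified lipid envelope formation, 7 passed the limit, against 63.3% of all protein-coding genes. SULT2B1, with a mean of 1.05 TPM, did so only through replicate 1 (2.05 against 0.191 to 1.18 TPM). The median of the 12 was 1.30 TPM, or 1.04 TPM without replicate 1 and 0.858 TPM with TPM over all rows. ALDH3A2, the fatty aldehyde dehydrogenase (125 TPM), TGM1, the transglutaminase of the cornified envelope (49.9 TPM), and ABHD5, the partner of the PNPLA lipases (7.20 TPM), were the highest, while the epidermal lipases LIPK and LIPN had no count in any replicate. Of the 15 genes of sphingomyelin and glucosylceramide turnover, 13 passed, led by PSAP, the saposin precursor (742 TPM), B4GALT5, a lactosylceramide synthase (85.5 TPM), and SMPD4 (68.4 TPM), and ACER1, the ceramidase of differentiated epidermis, had no count. The lists were put together with earlier results of these data known, and their counts are descriptions without a test.

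**Figure D3:**
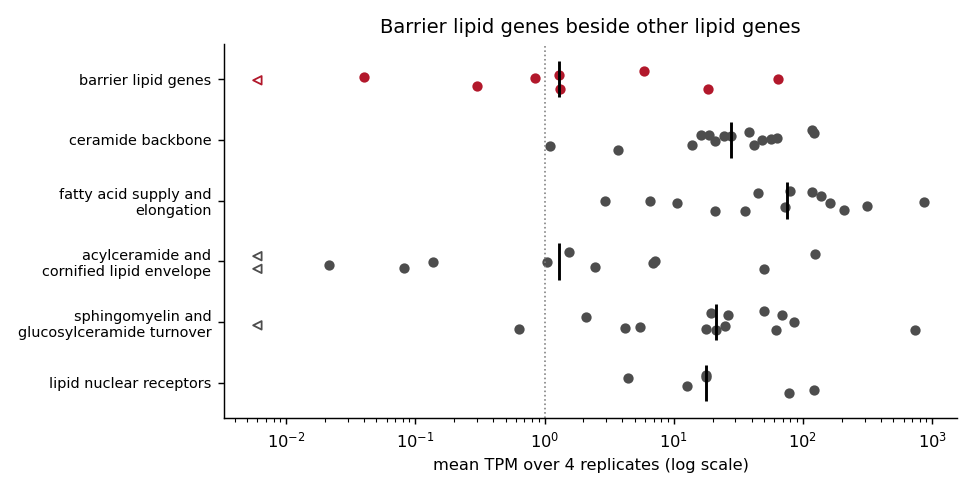
Mean TPM over the 4 replicates (log axis) of the 9 members (red) and of the genes of 5 other lipid lists (grey), 1 point per gene. Black bars are list medians, the dotted line is a TPM of 1 and open triangles are genes without a count. The members and the acylceramide list have a median of 1.30 TPM (0.793 and 1.04 TPM without replicate 1), and the backbone and fatty acid lists have medians of 27.6 and 75.7 TPM.

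The spread over replicates was set beside that of other genes. Among protein-coding genes with a mean TPM above 1, the highest replicate was more than 2 times the lowest in 64.2%, and the median ratio was 2.43. Of the 5 members above that limit, UGCG had 1.96, SMPD1 2.45, CERS3 2.53, ABCA12 17.2 and ALOXE3 208, the last of these against a single count in replicate 1. The other 4 members did not enter this count.

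Replicate 1 was the highest of the 4 for UGCG, SMPD1, CERS3, ABCA12 and ALOX12B, 5 of the 8 members with a count, against 36.7% of protein-coding genes with a count. With TPM over all rows, which adds the rows that are not protein-coding, ABCA12 and ALOX12B were highest there, 2 of 8 against 6.92% of genes, and UGCG, SMPD1 and CERS3 were lowest there. That scaling moved the median log2 difference (replicate 1 less the others' mean) from 0.04 to -1.47. The median was taken over protein-coding genes with a mean TPM above 1 and a GC value. Relative to this median, the differences of ABCA12 were 2.52 and 2.55 under the 2 scalings, those of ALOX12B 1.69 and 1.94, and those of ALOXE3 -3.99 and -2.44. Those of CERS3, SMPD1 and UGCG, given with their levels, kept their direction.

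The GC content of the transcript was given beside each difference, since it moved with replicate 1 across all genes. On the log2(TPM + 0.1) scale, replicate 1 minus the mean of the others was 2.56 for ABCA12, 1.73 for ALOX12B, 1.05 for CERS3, 0.86 for SMPD1, 0.68 for UGCG, 0.31 for ELOVL4 and -3.95 for ALOXE3. The ABCA12 transcript is GC-poor (42.6%) and those of ALOX12B (58.6%), SMPD1 (60.2%) and ALOXE3 (57.9%) are GC-rich. Less the median of genes of like GC content, a step chosen after seeing the data, the difference was 1.90 for ABCA12, 2.42 for ALOX12B, 1.43 for SMPD1, 0.79 for CERS3 and -3.26 for ALOXE3. That of UGCG went to -0.074 and that of ELOVL4 to -0.55, so the high UGCG value of replicate 1 is no larger than that of genes of the same GC content. This compares 1 library with 3, and no test was made.

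Suprabasal markers of keratinocyte differentiation were higher in the same library, but not these alone. Of the 5 basal markers, 3 had their highest TPM over protein-coding genes there, such as KRT5 (5396 against 1920 to 3000 TPM). ITGB4, also basal, was lowest there (105 against 186 to 471 TPM). All 6 suprabasal markers were highest in replicate 1 under each of the 4 scalings, and their summed TPM was 611 there against 41.4 to 66.6 in the others (189 against 36.7 to 61.9 with TPM over all rows). KRT1 had 124 TPM against 0.219 to 0.545 TPM, IVL 202 against 4.06 to 14.9, and DSG1 11.9 against no count. Of the 8 granular layer markers, which are made by the cells that assemble the barrier, only CASP14 was highest in replicate 1, at 1.31 TPM against 0 to 0.0854, and LOR had 7, 0, 0 and 3 counts. CDSN (0.112 against 0.572 to 1.11 TPM) and KLK5 (255 against 257 to 442 TPM) were lowest there. ABCA12 and ALOX12B were thus highest in the library in which the suprabasal markers were highest, whereas ALOXE3 was lowest there. The part of differentiation, RNA composition or GC content in these values was not tested, and with 1 library they cannot be told apart.

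**Figure D4:**
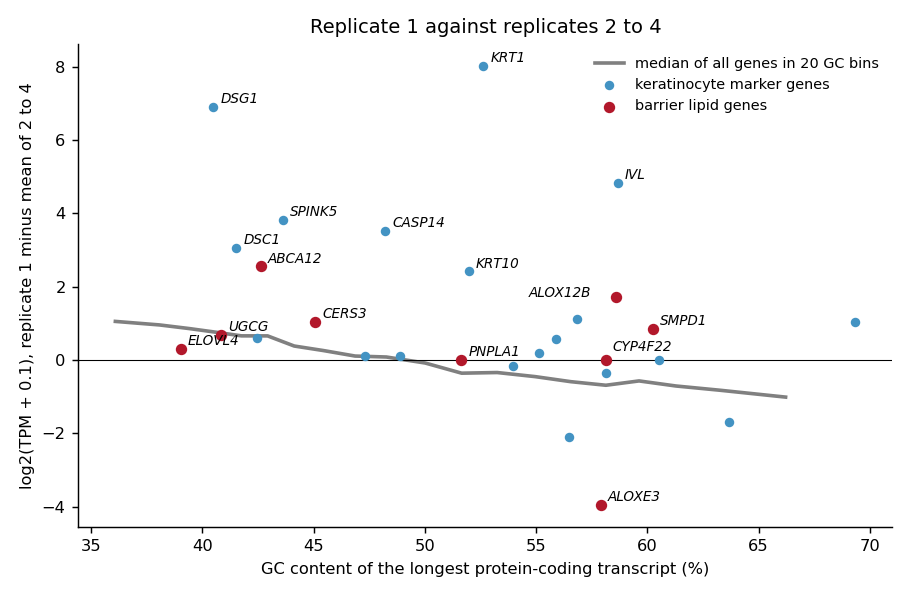
Difference of log2(TPM + 0.1) between replicate 1 and the mean of replicates 2 to 4, against the GC content of the longest protein-coding transcript in percent. Red points are the 9 members, blue points the basal, suprabasal and granular keratinocyte markers, and the grey line joins the medians of 20 bins of all genes with a mean TPM above 1. KRT1 stands at 8.02, ABCA12 and ALOX12B lie above the grey line, UGCG lies on it and ALOXE3 is far below at -3.95.

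For the 3 most abundant members, the protein-coding genes with the most similar profile over the 4 replicates were found by the root mean square difference of centred log2(TPM + 0.1). UGCG was nearest to RIBC2 (0.01), RAET1L (0.02) and TRMT5 (0.03), SMPD1 to STXBP4 (0.03), UBXN2B (0.03) and ZADH2 (0.03), and CERS3 to LINS1 (0.03), C9orf85 (0.04) and RAB9A (0.06). The median difference over 12160 genes compared was 0.53 for UGCG, 0.63 for SMPD1 and 0.66 for CERS3. None of these 9 genes is in the lipid lists, and a profile over 4 libraries of 1 condition is a description of those libraries only.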

How the data were processed

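RNA-seq of 4 untreated HaCaT replicates was analysed, 1 condition without a comparison group. The authors deposited raw counts per gene with a gene length and position, together with RPKM in replicates 1 and 2 and TPM in replicates 3 and 4. Per the labels' processing notes, HISAT2, HISAT, TopHat2 and Bowtie2 and the build hg19 were used, without versions or roles. The counting program, the annotation, strandedness and the selection of RNA are not given in the sources used here. The deposited RPKM and TPM follow from the deposited counts and lengths and were not averaged, since their units differ.

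TPM over protein-coding rows was computed from counts and lengths in each replicate. A pseudocount of 0.1 was used on the log2 scale, because most members lie near or below 1 TPM; differences of low genes still come out too small on that scale. A mean TPM above 1 was called detected, and 3 counts were the limit of a count of 0. Levels are means ± SD over the replicates. Neighbours in the order were compared by two-sided exact sign-flip permutation tests with Benjamini-Hochberg adjustment, and ratios of counts have 95% Clopper-Pearson intervals. The labels do not say how separately the replicates were cultured, while the study calls them biological repeats. The members and lists were chosen with earlier results of these data known. All members, the highest gene of each family, the 3 highest genes of each pathway list, the genes without a count and the 3 nearest profiles were named by rule, and other genes after their values were seen.

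GC content came from GENCODE release 29 transcripts (97.7% of 12165 genes) and promoter windows from RefSeq (GRCh38.p14). In the positions of the files, ABCA12, CERS3, CYP4F22 and UGCG overlap other rows, none with more than 9 counts in a replicate. Alternatives, of which the GC step and the medians by setting were added after seeing the data, were other scalings, lengths, limits and pseudocounts, thinning of replicate 1 and leaving out each replicate. The recovery of known differences in 1 library, the GC step and the nearest profiles were tried on simulated counts with counting noise alone. The other steps were not simulated. The tools were SciPy 1.17.1, pandas 2.3.3 and NumPy 2.4.6 under Python 3.11.15, with matplotlib 3.10.9 for figures.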

Additional observations from a re-analysis of the deposited data

Results flagged for a closer look

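In 29 sets of 4 replicate values (the TPM and family share of each member with a count, and the summed TPM of the pathway and marker lists), 6 had a single value past Dixon's 95% critical gap. By chance 1 in 20 sets, or 1.45, would have one, and the sets are not independent, since several share the same counts. Of the 6, 5 were in replicate 1.

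Among the members, the ALOX12B level was set apart in replicate 1, at 0.740 TPM against 0.120 to 0.215 TPM. Its share of the lipoxygenases was 14.2% in replicate 1 against 0.635% to 1.77%, where the family sum was also lowest in replicate 1 (5.21 TPM against 7.54 to 20.2 TPM). The share of ABCA12 among the ABCA transporters was 6.38% in replicate 1 against 1.25% to 1.89%, and that of UGCG among the ceramide hexosyltransferases was 93.8% against 80.1% to 81.1%. The summed TPM of the suprabasal markers was 611 in replicate 1 against 41.4 to 66.6. In replicate 3, the summed TPM of the sphingomyelin and glucosylceramide turnover list was 818 against 1203 to 1282, with PSAP at 466 TPM there against 802 to 854 TPM. The ALOXE3 value of replicate 1, 1 count, did not pass the limit, because the other 3 replicates differ among themselves.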

How the results depend on the processing

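Of 49 summary values under other settings, 45 kept within their limits and 4 moved. A value within its limits can still differ from the main one. The median ratio of highest to lowest replicate over detected members, 2.53, was 1.76 without replicate 1. The summed mean TPM of the 9 members, 92.1, was 63.5 with TPM over all rows, 150.0 counts per 1000000 without length correction and 124 with the union of annotated exons as length (found for 97.0% of protein-coding genes). The lengths of UGCG (4012 and 4007 bases) and SMPD1 (2532 and 2495 bases) hardly changed in the last setting. That move therefore lies mainly in the scaling over the other genes. The number of replicates with ALOX12B above ALOXE3 was 0 to 1 when a replicate was left out, and 0 only without replicate 1. The number of detected members, 5, was 4 to 7: without replicate 1 the mean of ABCA12 was under 1 TPM, without replicate 2 that of ALOXE3 was, and with a limit of 0.1 TPM, ELOVL4 and ALOX12B were added. With more than 3 counts in every replicate as the limit the number was 5 again, with ELOVL4 (15 to 72 counts) in place of ALOXE3 (1 count in replicate 1). Without replicate 1, 6 in place of 5 neighbour pairs kept 1 direction, as ALOXE3 was then above ABCA12 in every replicate. UGCG kept 79.8% of its family without length correction and more in the other settings that gave a share. The difference of UGCG in replicate 1 turned from 0.68 to -0.074 when genes of like GC content were taken as zero. Depth limits ALOX12B in replicates 2 to 4, PNPLA1 and CYP4F22, which had 4 counts or fewer. No paired analysis was possible because all 4 samples belong to 1 condition.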

Other observations

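Other genes of terminal differentiation were uneven in HaCaT. Of the 8 granular layer markers, KLK5, a protease of the outer epidermis, had 312 ± 88.5 TPM (SD, n = 4), KLK7 16.6 ± 4.18 and FLG, the filaggrin precursor, 7.93 ± 4.68. LOR, FLG2, TGM3, CASP14 and CDSN had means of 0.141, 0.0635, 0.0202, 0.348 and 0.652 TPM. KLK5, KLK7 and FLG were thus above the limit of 1 TPM, while the other granular layer markers, among them the protease CASP14, were under it.

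Among the paralogs, CYP4F3 followed CYP4F12 in replicate 1, with 43.2 TPM there against 1.74 to 7.45 TPM in the others, and ABCA1, the cholesterol exporter, had 15.2 TPM against 0.222 to 2.84 TPM. DEGS2, which makes the phytoceramides of the epidermis, had 14.4 TPM in replicate 1 and 0 to 0.321 TPM in the others, and SPTSSB, a small subunit of serine palmitoyltransferase, had 4.15 against 0.0454 to 0.122 TPM. These genes were singled out after their values were seen, and no test was made.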
